A study of Mus musculus with 8 samples.

Results

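The unfolded protein response and the folding machinery of the endoplasmic reticulum (ER) were examined through 37 genes, chosen by name. All 37 had at least 1 probe set (82 in all) among the 18193 genes measured, and each was read from its brightest probe set. RNA came from bone marrow cells sorted as Sca1+Lin-, that is, positive for the stem cell antigen Sca1 and negative for markers of mature blood lineages. There were 3 wild-type arrays and 5 arrays of Sca1-MALT1 transgenic mice, whose transgene name joins the Sca1 promoter to MALT1, an NF-kB activating protease rearranged in lymphoma of mucosa-associated tissue. The labels name no further allele, treatment, age or founder line, do not give the species of MALT1 or the cells that express it, and do not say whether an array holds 1 animal or a pool. The RNA was amplified linearly before labelling, and values are log2 signals on an arbitrary scale, so levels are compared between arrays for 1 gene, and a signal is no measure of how much of 1 gene there is against another.

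Proteins destined for secretion or for membranes fold in the ER, where HSP70 and HSP90 chaperones, lectin chaperones and disulphide isomerases attend them. When unfolded protein builds up, the sensors IRE1 (gene Ern1), PERK (Eif2ak3) and ATF6 (Atf6) respond. IRE1 splices the mRNA of the transcription factor XBP1, PERK phosphorylates the initiation factor eIF2alpha and so favours translation of ATF4, and ATF6 is cut to release a transcription factor. XBP1 and ATF6 act mainly on genes of folding and of ER-associated degradation, which returns misfolded protein to the cytosol, while ATF4 and its partner CHOP (Ddit3) act on amino acid supply and cell death. Plasma cells, which secrete antibody, are known for a large ER built under XBP1.

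The promoters of some of these genes carry sequences through which that response is known to act, and the stretches below show examples found beside genes described here. RefSeq promoter windows (build GRCm38.p6), from 250 bases before to 50 after each start, were listed for 32 of the 37 genes and searched on both strands. The ER stress response element, ERSE, is spelled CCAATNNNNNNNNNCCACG and is bound by ATF6 together with NF-Y. It was present for 9 of the 32 genes (28.1%) and for 37 of 27025 genes (0.137%) in the whole table. The shorter ERSE-II, ATTGGNCCACG, was present for 2 of the 32 (Herpud1 and Dnajb11) and for 0.0444% of all genes. The C/EBP-ATF element bound by ATF4, searched as TGATGNAA, was present for 4 of the 32 (12.5%; Asns, Chac1, Herpud1 and Trib3) and for 4.51% of all genes. The XBP1-type element TGACGTGG was in none of the 32 windows and in those of 0.714% of all genes. ERSE, ERSE-II and the XBP1-type element share letters on one strand or the other, so their matches can overlap. The matches of Dnajb11 and Trib3 lay after the start. A match describes the letters and does not show a bound site.

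Each stretch is written 5′ to 3′ along the strand of its gene, with the match in capitals (an element on the opposite strand therefore reads as its reverse complement) and with 25 bases on either side where these lie before the start. Derl3, Creld2 and Hsp90b1 are shown because their Sca1-MALT1 arrays lay above all wild-type arrays, Hspa5 and Canx because theirs did not although the same element is present, Herpud1 for ERSE-II, and Asns and Chac1 for the ATF4 element.
Derl3, ERSE, chr10:75893217-75893285, plus strand: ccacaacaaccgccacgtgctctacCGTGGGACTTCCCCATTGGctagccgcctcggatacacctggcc
Creld2, ERSE, chr15:88819495-88819563, plus strand: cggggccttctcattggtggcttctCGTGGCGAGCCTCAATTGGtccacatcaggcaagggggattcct
Hsp90b1, ERSE nearest the start, chr10:86705508-86705576, minus strand: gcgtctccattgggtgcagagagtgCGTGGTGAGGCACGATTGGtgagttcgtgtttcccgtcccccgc
Hspa5, ERSE, chr2:34772000-34772068, plus strand: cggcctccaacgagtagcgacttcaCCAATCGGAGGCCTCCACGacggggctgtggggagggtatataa
Canx, ERSE, chr11:50325775-50325843, minus strand: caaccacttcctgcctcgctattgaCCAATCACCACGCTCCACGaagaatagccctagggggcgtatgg
Herpud1, ERSE-II, chr8:94386352-94386412, plus strand: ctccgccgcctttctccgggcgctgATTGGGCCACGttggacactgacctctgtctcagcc
Asns, ATF4 element, chr6:7693210-7693257, minus strand: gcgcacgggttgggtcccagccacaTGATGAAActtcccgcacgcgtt
Chac1, ATF4 element, chr2:119351024-119351081, plus strand: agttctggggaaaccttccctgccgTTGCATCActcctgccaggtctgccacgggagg

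Most of the 37 genes read higher in Sca1-MALT1 than in wild type, and none passed the test over all genes. The largest differences were in genes of ER-associated degradation, led by Derl3 and Edem1. Of other roles, Fkbp11 stood at 1.57 (0.020 and 0.022 in its other probe sets), Mzb1 at 1.56 and the stress-induced Creld2 at 1.53. The groups overlapped for Fkbp11 and Mzb1. The HSP70 chaperone BiP (Hspa5), calnexin (Canx), Pdia3 and the regulators Atf4, Ddit3 and Eif2ak3 differed by less than 0.25 on the log2 scale. Across the 37 genes the median log2 difference, Sca1-MALT1 minus wild type, was 0.53, against 0.0040 over all 18193 genes. The difference was above 0 for 35 of the 37 (94.6%), where 50.7% of all genes lay above 0, and Trib3 fell on the other side of 0 when arrays were scaled by quantiles or centred on their median. Differences ran from -0.067 (Canx) to 2.88 (Derl3), with 13 genes above 1 and 11 within 0.25 of 0.

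In limma's test, 0 of the 37 genes passed an adjusted p of 0.05, where 16 of all genes (0.0879%) did. At an unadjusted p under 0.05 there were 18 of the 37, all higher in Sca1-MALT1, where 5.69% of all genes were higher at that level and 10.2% differed in either direction. In 12 of the 37 (32.4%) every Sca1-MALT1 array lay above every wild-type array, and in 0 every array lay below. Over all genes 4.27% were separated in that direction and 7.13% in either, the background for the counts of separated genes by role below. Since the mean signal of 36 of the 37 genes lay above the median of all genes, the same shares were taken over the 9096 genes above it, of which 4.77% were separated upwards and 7.37% were higher at an unadjusted p under 0.05. The direction of the 37 genes has already been seen in these data for the list as a whole, and is not independent support here.

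**Figure D1:**
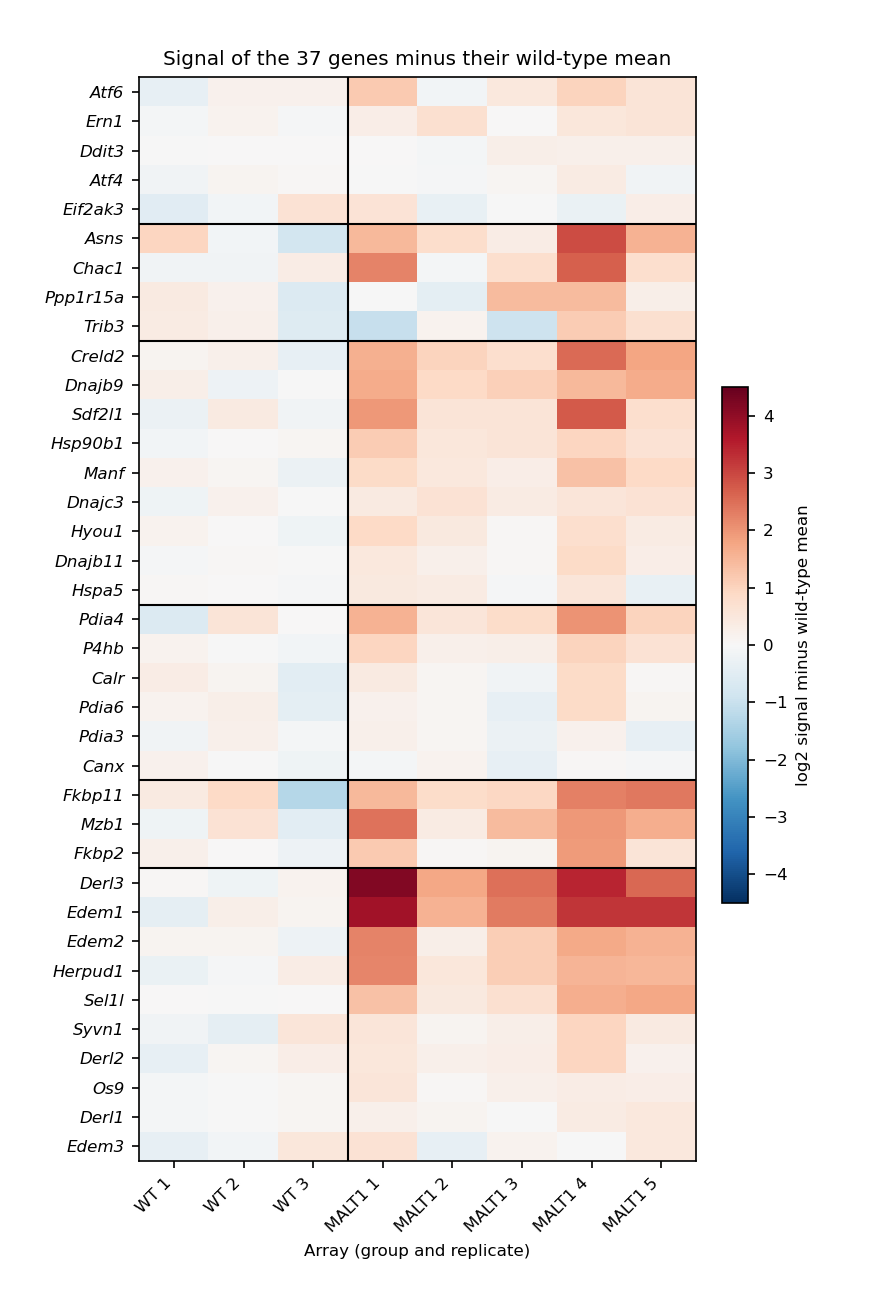
Log2 signal of each of the 37 genes (rows, grouped by role with black lines) in each array (columns, WT for wild type and MALT1 for Sca1-MALT1, with the replicate number), as the deviation from that gene's wild-type mean. The deepest red lies in the rows of Derl3 and Edem1, and MALT1 replicates 1 and 4 are red in more rows than replicates 2 and 3.

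**Figure D2:**
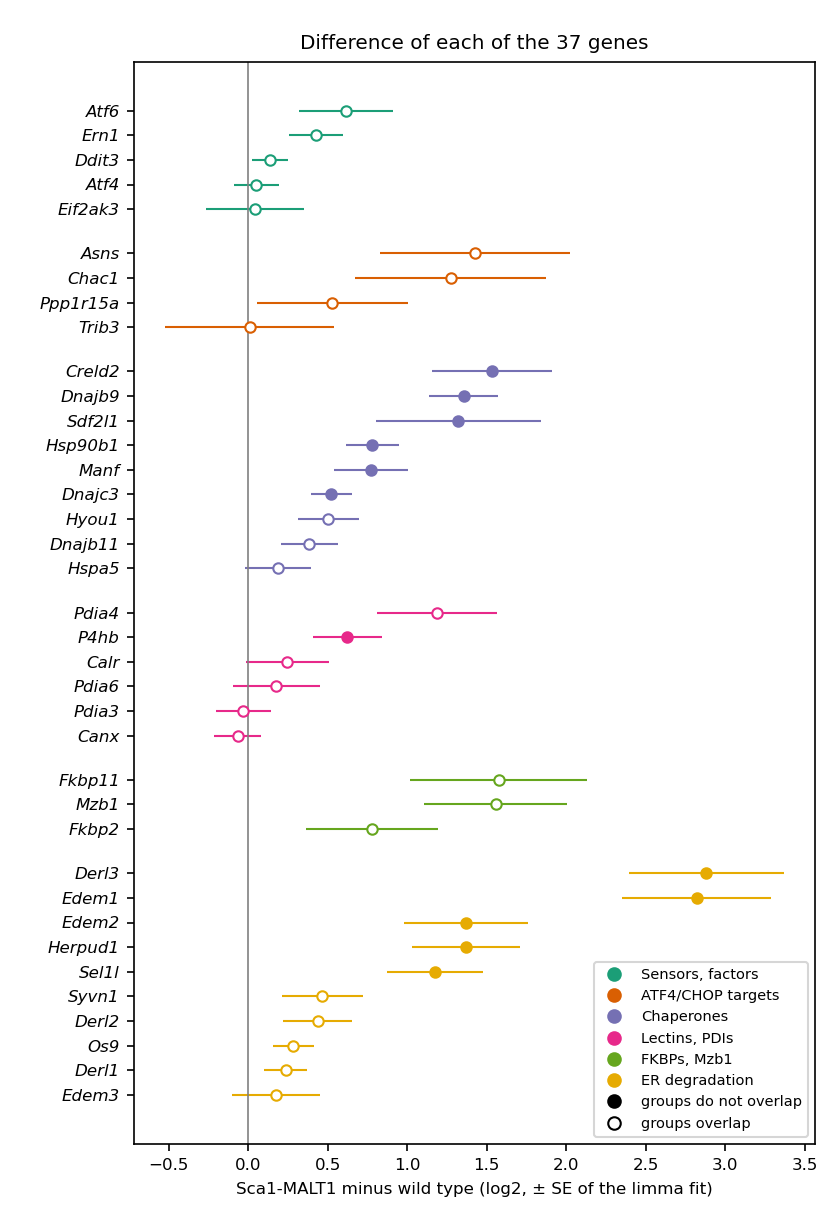
Difference between Sca1-MALT1 and wild type for each gene (log2, points; bars are the SE of the limma fit), grouped by role. Filled points are the 12 genes whose groups did not overlap; Canx and Pdia3 are the 2 points below 0.

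Of the 5 sensors and transcription factors of the response, 0 passed, 5 read higher, and the median difference was 0.14. The groups overlapped for all 5 in the brightest probe set, and for Atf6 they did not in another. Ern1, which encodes IRE1, read 11.23, 11.47 and 11.27 in wild-type replicates 1 to 3 and 11.61, 12.05, 11.34, 11.84 and 11.91 in Sca1-MALT1 replicates 1 to 5, the order used for all genes below. Replicate 3 alone lay within the wild-type range, and the log2 difference was 0.43 (SE 0.17, adjusted p = 0.446). Atf6 read 8.23, 8.80 and 8.81 against 9.77, 8.49, 9.07, 9.61 and 9.18. Here Sca1-MALT1 replicate 2 lay inside the wild-type range and the other 4 above it, for a difference of 0.61 (SE 0.29, adjusted p = 0.527). Its dimmer probe sets differed by 1.18, without overlap, and by 0.75, and the 4 dimmer ones of Ern1 by 0.0061 to 0.26.

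In the PERK branch, the transcripts of Eif2ak3, Atf4 and Ddit3 differed little between the groups. Eif2ak3 read 9.56, 9.95 and 10.75 in wild type and 10.69, 9.76, 10.05, 9.77 and 10.38 in Sca1-MALT1, all 5 inside the wild-type range (difference 0.045, SE 0.31, adjusted p = 0.979). Its effector Atf4 read 11.38, 11.68 and 11.59 against 11.54, 11.49, 11.66, 11.91 and 11.41. Only replicate 4 exceeded wild type, and the difference was 0.051 (SE 0.14, adjusted p = 0.934), below 0 in both dimmer probe sets of the gene. Ddit3, which encodes CHOP, was the tightest of the 5, with 8.73, 8.77 and 8.75 in wild type and 8.77, 8.68, 9.01, 8.98 and 8.98 in Sca1-MALT1 (difference 0.14, SE 0.11, adjusted p = 0.744). ATF4 is controlled largely through translation and IRE1 and PERK through phosphorylation, none of which the arrays measure.

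Genes that ATF4 and CHOP are known to induce varied widely between arrays and did not move as 1. None of the 4 passed, 4 read higher, and no pair of groups was separated in the brightest probe set. The median difference was 0.90. Asns, the asparagine synthetase, read 10.23, 9.16 and 8.44 in wild type and 10.75, 10.09, 9.62, 12.23 and 10.84 in Sca1-MALT1. Replicate 4 stood highest and 3 of 5 arrays exceeded wild type (difference 1.43, SE 0.60, adjusted p = 0.472), while in its second probe set, nearly as bright, the groups did not overlap (difference 1.57). Chac1, which degrades glutathione, read 6.73, 6.71 and 7.20 against 9.13, 6.78, 7.63, 9.58 and 7.65. Replicates 1 and 4 were its high arrays while replicate 2 lay in the wild-type range (difference 1.27, SE 0.60, adjusted p = 0.519). Ppp1r15a, the phosphatase subunit GADD34 that reverses the PERK signal, read 10.44, 10.22 and 9.40 against 9.999, 9.58, 11.44, 11.43 and 10.30. Its high arrays were replicates 3 and 4 (difference 0.53, SE 0.48, adjusted p = 0.762), and the difference was 0.22, 0.31 and 0.31 without wild-type replicate 3, Sca1-MALT1 replicate 3 and Sca1-MALT1 replicate 4. The pseudokinase gene Trib3 read 8.86, 8.70 and 7.89 against 7.46, 8.65, 7.54, 9.62 and 9.20, with 2 arrays above and 2 below all wild-type arrays (difference 0.010, SE 0.53, adjusted p = 0.997).

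Chaperones of the HSP70 and HSP90 systems and their cofactors were the role in which most genes were separated between the groups. In 6 of the 9 genes every Sca1-MALT1 array lay above wild type, 7 had an unadjusted p under 0.05, 0 passed after adjustment, and the median difference was 0.77. Dnajb9, the J-domain co-chaperone ERdj4 that recruits BiP to IRE1, had the lowest p of the 37 genes. It read 10.81, 10.31 and 10.55 in wild type and 12.24, 11.46, 11.64, 12.004 and 12.21 in Sca1-MALT1. The nearest arrays of the groups were 10.81 and 11.46, and the difference was 1.35 (SE 0.21, 2.56-fold, adjusted p = 0.0915).

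Hsp90b1, the ER form of HSP90, read 12.15, 12.28 and 12.36 against 13.42, 12.79, 12.84, 13.23 and 12.93. The groups did not overlap (difference 0.78, SE 0.17, 1.72-fold, adjusted p = 0.209), although its dimmer probe set differed by 0.29 with overlap. Creld2, an ER protein induced by stress, read 10.87, 10.97 and 10.38 against 12.34, 11.73, 11.51, 13.27 and 12.50, with replicate 4 highest (difference 1.53, SE 0.38, 2.89-fold, adjusted p = 0.271). Dnajc3, a co-chaperone of BiP known as P58IPK, read 9.95, 10.33 and 10.13 against 10.53, 10.80, 10.50, 10.68 and 10.80. Its Sca1-MALT1 arrays were close together, with an SD of 0.14 (difference 0.52, SE 0.13, adjusted p = 0.271). All 5 of its probe sets were higher, but only the brightest was without overlap.

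BiP, the most used chaperone of the compartment, did not follow its cofactors. Hspa5 read 13.40, 13.36 and 13.29 in wild type and 13.77, 13.72, 13.29, 13.90 and 13.01 in Sca1-MALT1. Replicates 1, 2 and 4 lay above wild type and replicate 5 below it (difference 0.19, SE 0.21, adjusted p = 0.810). Its other 2 probe sets differed by 0.51 and -0.28, so the sign was not shared. Manf, a secreted partner of BiP, and Sdf2l1, a partner of the ERdj3 complex, were separated between groups with differences of 0.77 (adjusted p = 0.337) and 1.32 (adjusted p = 0.440). For Sdf2l1 the 2 high arrays were replicates 1 and 4 at 10.25 and 11.06, against 8.87 to 9.07 in replicates 2, 3 and 5. Hyou1, an exchange factor for BiP, and Dnajb11, the J-domain protein ERdj3, differed by 0.50 and 0.38, each with 4 of 5 arrays above wild type.

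Lectin chaperones and disulphide isomerases split into genes that were higher and genes near 0. Of 6 genes 1 was separated, 2 had an unadjusted p under 0.05, 0 passed after adjustment, and the median was 0.21. P4hb, the founding protein disulphide isomerase, read 12.49, 12.32 and 12.21 against 13.32, 12.56, 12.59, 13.34 and 12.99. No array overlapped, and replicates 2 and 3 were the closest to wild type (difference 0.62, SE 0.22, adjusted p = 0.383). Pdia4 read 8.01, 9.20 and 8.62 against 10.19, 9.15, 9.43, 10.62 and 9.60, with replicate 2 just below the highest wild-type array (difference 1.19, SE 0.38, adjusted p = 0.363; 0.63 over the mean of its probe sets).

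The calnexin and calreticulin pair, which hold glycoproteins until they fold, stayed near wild-type levels in most arrays. Calr read 12.74, 12.53 and 11.95 against 12.81, 12.50, 12.26, 13.26 and 12.45 (difference 0.25, SE 0.26, adjusted p = 0.797). Canx read 12.93, 12.73 and 12.54 against 12.63, 12.89, 12.36, 12.77 and 12.69 (difference -0.067, SE 0.15, adjusted p = 0.914). Pdia6 read 11.87, 11.97 and 11.29 against 11.89, 11.79, 11.34, 12.57 and 11.82, so that replicate 4 alone exceeded wild type (difference 0.18, SE 0.27, adjusted p = 0.869). Pdia3, the isomerase that works with both lectins, differed by -0.030 (SE 0.18, adjusted p = 0.975).

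Of the prolyl isomerases and the B lineage ER protein Mzb1, 3 of 3 read higher and 0 passed or were separated. Their median difference in the brightest probe sets was 1.56, the highest of the roles, but with 3 genes it is the value of Mzb1. Over the mean of the probe sets, Fkbp11, Fkbp2 and Mzb1 stood at 0.54, 0.78 and 1.56, so the ranking depends on the probe sets used. Mzb1, which helps antibody chains assemble in B cells and plasma cells, read 11.24, 12.09 and 10.94 against 13.85, 11.79, 12.84, 13.36 and 13.05. Sca1-MALT1 replicate 2 lay within the wild-type range and the other 4 above it (difference 1.56, SE 0.45, adjusted p = 0.320). Fkbp11 read 6.66, 7.16 and 4.97 against 7.70, 7.10, 7.20, 8.54 and 8.63 (difference 1.57, SE 0.56, adjusted p = 0.390). Wild-type replicate 3 stood apart at 4.97, and the other 2 probe sets of the gene differed by 0.020 and 0.022. The difference was 0.93 without that array and 0.54 over the mean of the probe sets. Fkbp2 read 9.98, 9.79 and 9.54 against 10.96, 9.83, 9.91, 11.70 and 10.35, with replicates 1 and 4 highest (difference 0.78, SE 0.41, adjusted p = 0.570, and 0.49 without Sca1-MALT1 replicate 4).

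**Figure D3:**
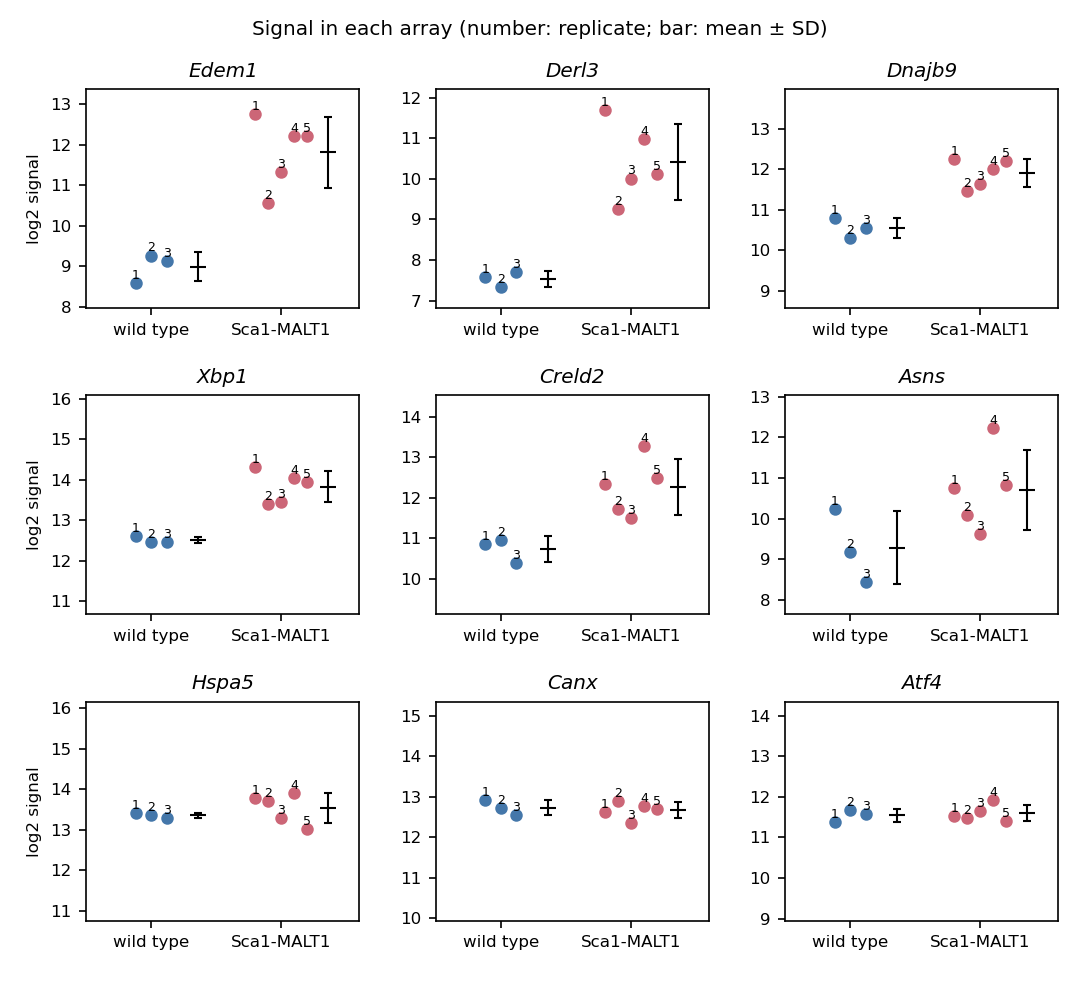
Log2 signal in each array (points, numbered by replicate; black bars are group mean ± SD) for 8 of the 37 genes and for Xbp1; all panels span the same number of log2 units. Edem1, Derl3, Dnajb9, Xbp1 and Creld2 show no overlap between groups, while Hspa5, Canx and Atf4 overlap; replicate 4 is the top point of Asns and replicate 1 that of Edem1 and Derl3.

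ER-associated degradation held the largest differences of the 37 genes. All 10 genes read higher, 5 were separated, the same number had an unadjusted p under 0.05, and 0 passed after adjustment. The median difference was 0.82. Edem1, a lectin that picks misfolded glycoproteins for disposal, read 8.58, 9.27 and 9.14 against 12.77, 10.56, 11.33, 12.22 and 12.21. The lowest Sca1-MALT1 array was replicate 2, still above the highest wild-type array (difference 2.82, SE 0.47, 7.07-fold, adjusted p = 0.109), and the second probe set differed by 1.17, also without overlap. Derl3, a derlin of the retrotranslocation channel, read 7.58, 7.33 and 7.70 against 11.71, 9.26, 10.01, 10.97 and 10.13. Replicate 1 was again highest and replicate 2 lowest of the 5 (difference 2.88, SE 0.49, 7.36-fold, adjusted p = 0.115).

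The HRD1 ubiquitin ligase complex was uneven. Sel1l, its adaptor, read 9.95, 9.94 and 9.96 against 11.27, 10.40, 10.65, 11.59 and 11.70. Wild-type arrays agreed to an SD of 0.011, and all 5 probe sets were separated in the same direction (difference 1.17, SE 0.30, 2.26-fold, adjusted p = 0.271). Herpud1, which brings substrates to the complex, read 10.87, 11.12 and 11.49 against 13.36, 11.69, 12.27, 12.68 and 12.66, and both of its probe sets were separated (difference 1.37, SE 0.34, 2.58-fold, adjusted p = 0.271). Syvn1, the ligase HRD1 itself, differed by 0.47 (SE 0.25, adjusted p = 0.582; 0.27 and 0.74 without wild-type replicates 2 and 3), and its groups overlapped. Edem2 differed by 1.37 without overlap (SE 0.39, adjusted p = 0.318; 0.58 over the mean of its probe sets), whereas Edem3 read 10.23, 10.49 and 11.11 against 11.27, 10.23, 10.76, 10.58 and 11.07, a difference of 0.17 (SE 0.28, adjusted p = 0.870). Derl1, Derl2 and the lectin gene Os9 differed by 0.23, 0.44 and 0.28, with 4, 3 and 4 of the 5 arrays above wild type. Probe sets mattered here: the other 3 of Derl1 differed by 0.54, 0.78 and 1.02, all without overlap, and their mean with the brightest by 0.64. The second of Derl2 differed by 0.54 without overlap, that of Os9 by -0.074, and Derl2 by 0.26 without wild-type replicate 1.

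Genes with an ERSE in the promoter window lay at both ends of the range. The 9 such genes had differences from -0.067 (Canx) to 2.88 (Derl3) with a median of 0.47, and 4 were separated between groups. The 23 genes with a window but no ERSE ran from -0.030 to 2.82 with a median of 0.62, and 7 were separated. Over all genes 7.13% were separated in either direction. These are descriptions without a test.

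The other genes of the pathway, 88 measured of 92 listed, lay closer to wild type in their median than the 37 genes did. In all, 63 read higher and 25 lower, the median difference was 0.21, and 0 passed by limma. At an unadjusted p under 0.05 by limma there were 26 (23 higher), where 10.2% of all genes differed in either direction. Separated upwards were 15 and downwards 2, where 4.27% of all genes were separated upwards and 7.13% in either direction. Xbp1 was the regulator with the lowest p. It read 12.60, 12.45 and 12.47 in wild type and 14.30, 13.39, 13.45, 14.05 and 13.95 in Sca1-MALT1, a difference of 1.32 without overlap (SE 0.22, 2.50-fold, adjusted p = 0.109). All 4 probe sets were higher, the dimmest with overlap. The spliced form was not separately measured. Among the 16 measured regulators, 14 read higher with a median of 0.25, including Creb3 at 0.62 and Creb3l2 at 1.11, both membrane-bound factors related to ATF6.

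Further ER folding enzymes had a median of 0.059 over 26 genes, 17 higher and 9 lower, so a few large differences stood among many near 0. Txndc5, a disulphide isomerase abundant in plasma cells, read 10.02, 10.34 and 9.90 against 13.58, 11.64, 12.09, 12.58 and 12.30 (difference 2.35, SE 0.39, 5.10-fold, adjusted p = 0.109). Erp44, which retains unassembled IgM, and the membrane thioredoxin Tmx1 differed by 0.65 and 0.46, also without overlap. The remaining degradation genes had a median of 0.34 over 22 genes, 18 higher, with the ubiquitin-conjugating enzyme Ube2j1 at 0.9969, the selenoprotein Selenos at 0.64 and the signal peptide peptidase Hm13 at 0.92, none past the threshold.

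Targets of the wider integrated stress response had a median of 0.17 over 24 genes, 14 higher and 10 lower. Slc3a2, the heavy chain of amino acid exchangers, read 11.06, 11.65 and 11.46 against 13.36, 11.99, 12.72, 13.51 and 13.30 (difference 1.58, SE 0.35, adjusted p = 0.219). Stc2, a secreted glycoprotein, stood at 1.85 without overlap. The cystine transporter gene Slc7a11 stood at -0.37, with all 5 arrays below wild type, but at signals of 3.81 to 4.51 that were among the dimmer ones of the arrays, whose medians were 6.40 to 6.48. Enzymes of serine synthesis did not read higher, Psat1 standing at -0.59 and Phgdh at -0.26; these 2 were named after their values were seen.

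**Figure D4:**
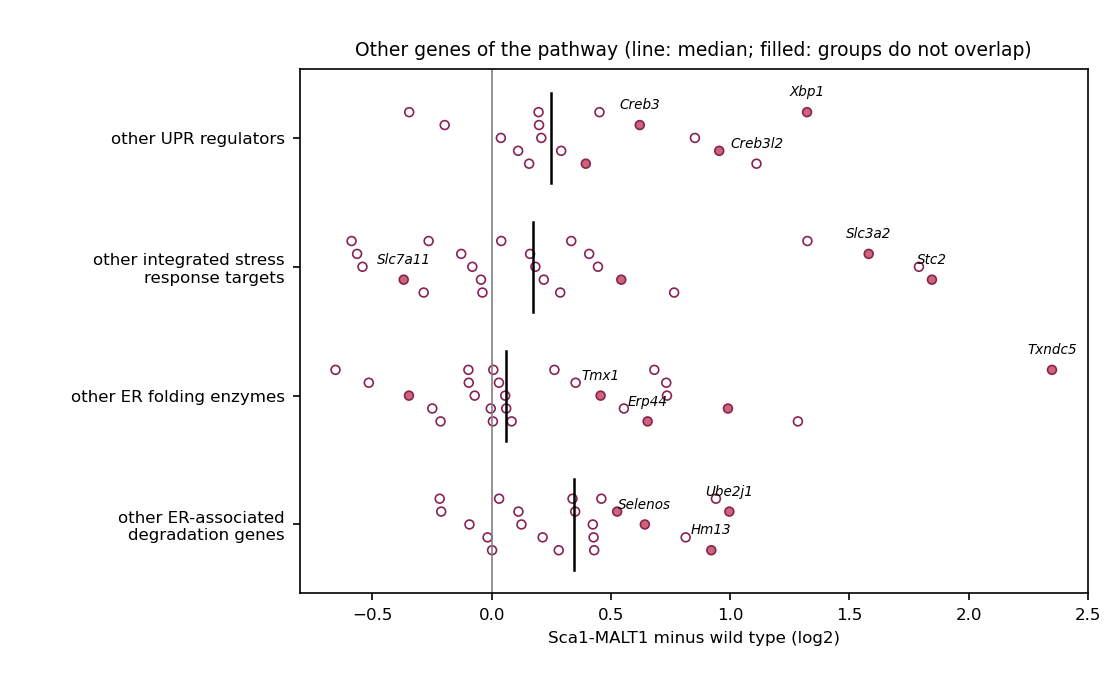
Difference between Sca1-MALT1 and wild type (log2) for 88 further genes of the pathway in 4 lists, each point 1 gene, filled where the groups did not overlap; black lines are the list medians, from 0.059 to 0.34. Named points are the 3 genes of each list with the lowest unadjusted p, Txndc5 lying farthest right.

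The 5 Sca1-MALT1 arrays differed among themselves in how far the 37 genes stood from wild type. The median deviation from the wild-type mean was 1.0025 in replicate 4, 0.88 in replicate 1, 0.58 in replicate 5, 0.30 in replicate 3 and 0.23 in replicate 2, against -0.053 to 0.064 in wild type. Counted by gene, 33, 30, 26, 21 and 17 of the 37 lay above all wild-type arrays in replicates 4, 1, 5, 3 and 2. The SD was larger in Sca1-MALT1 than in wild type for 30 of the 37 genes, with medians of 0.40 and 0.25, where 59.8% of all genes had the larger SD in Sca1-MALT1. Replicate 2 was the lowest of the 5 arrays for 21 genes. Without it, Edem1, Derl3 and Dnajb9 passed (adjusted p = 0.0217, 0.0422 and 0.0459 by limma), 3 of the 37 where 0.209% of all genes did, and 19 of the 37 were separated where 11.4% of all genes were. That array was singled out by low values of these same genes. The lower p-values without it follow in part from that choice and are no support. Leaving out any other array let none of the 37 pass.

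Roles differed in which array stood highest. For ER-associated degradation replicate 1 was the highest of the 5 in 6 of 10 genes and replicate 2 the lowest in 8. For chaperones replicate 4 was highest in 5 of 9 genes, for lectins and isomerases in 4 of 6, and for ATF4 and CHOP targets in 3 of 4.

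Markers of other cell types moved between the same arrays. RNA of all sorted cells was pooled, so fewer cells of a type and less RNA per cell cannot be told apart. All 9 measured plasma cell markers of 12 listed were higher in Sca1-MALT1, 6 of them without overlap, where 4.27% of all genes were separated upwards. Jchain, which links secreted antibody, passed limma's test (difference 2.58, adjusted p = 0.0163). The mean log2 signal of the 9 markers was 9.07 to 9.31 in wild type and 12.48, 10.79, 11.39, 11.36 and 11.77 in Sca1-MALT1 replicates 1 to 5. For all 9 markers replicate 1 was the highest Sca1-MALT1 array, and for 8 replicate 2 was the lowest, which are also the extremes of most degradation genes. The transcript of Igha, the heavy chain of IgA, read 12.45, 7.17 and 8.42 in wild type and 15.10 to 15.38 in Sca1-MALT1. Whether plasma cell RNA has a part in the differences of the 37 genes was not tested.

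Replicate 4, highest for 16 of the 37 genes, was also the highest of the 5 for all 8 neutrophil markers, whose mean was 12.26 to 12.81 in wild type, 13.998 in replicate 4 and 10.54 to 12.52 in the rest. For monocyte markers it was highest in 5 of 6. Between the groups, 7 of 8 neutrophil and 5 of 6 monocyte markers were lower in Sca1-MALT1, with median differences of -0.88 and -0.44. Early B cell markers were lower in Sca1-MALT1 in 10 of 11 genes (mean signal 9.83 to 10.70 in wild type and 7.35 to 8.21 in Sca1-MALT1). Of these, 4 passed limma's test: Igll1, Vpreb1, Rag1 and Rag2. They differed by -3.92, -5.55, -5.88 and -2.46 (adjusted p = 0.0023, 0.0060, 0.0060 and 0.037 by limma). Stem and progenitor markers were lower in 7 of 9 genes (9.17 to 10.60 and 8.06 to 10.27). The part of these lists in the differences was not tested. T and NK cell markers were higher in 6 of 7 genes (8.99 to 9.24 and 8.74 to 10.49), and replicate 4 was the lowest of the 5 for all 7. Erythroid markers were higher in 7 of 7 (8.78 to 9.18 and 9.55 to 10.28) and stromal markers in 5 of 6 (6.25 to 7.82 and 7.01 to 7.62). Some of these differences were small: 0.055 for Car2, 0.076 for Hba-a1, 0.059 for Col3a1 and 0.0067 for Col1a1. The stromal gene Postn stood at -1.73, with all 5 arrays below wild type. The part of these lists was likewise not tested. Without replicate 4 the median over the 37 genes was 0.49, and without replicate 1 it was 0.53.

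**Figure D5:**
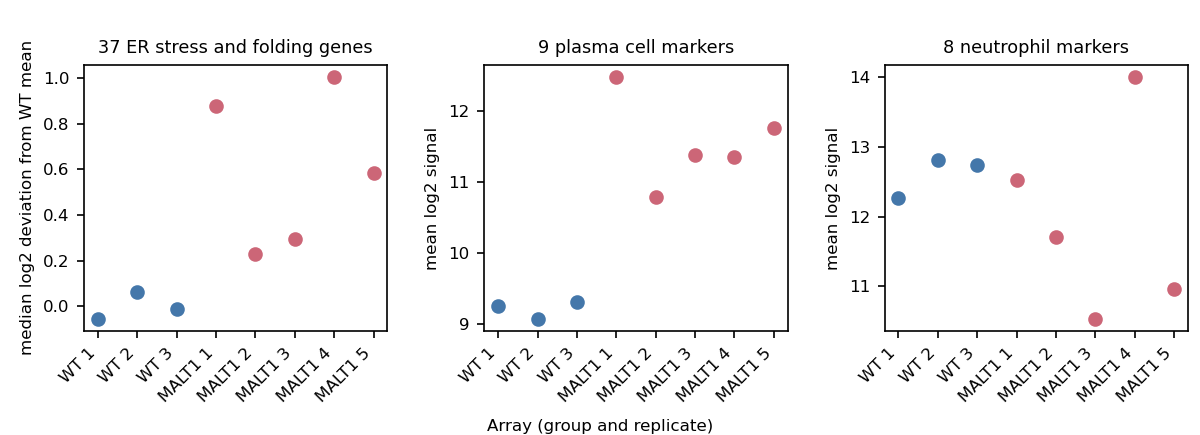
Summaries of each array (wild type blue, Sca1-MALT1 red): the median log2 deviation of the 37 genes from their wild-type mean, the mean log2 signal of 9 plasma cell markers and that of 8 neutrophil markers. Replicate 1 of Sca1-MALT1 is highest for plasma cell markers and replicate 4 for neutrophil markers. These are the 2 highest arrays in the first panel, but for plasma cell markers replicate 4 (11.36) lies below replicates 1, 3 and 5. Between the groups, 7 of the 8 neutrophil markers were lower in Sca1-MALT1.

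Of the labelled sort, Kit, a receptor of progenitors, read 9.24 to 11.06 in wild type and 8.43 to 10.65 in Sca1-MALT1. Genes of cells that the lineage depletion should remove also gave signal in wild type. S100a8 read 14.57 to 15.07 there, and the B cell gene Ms4a1, counted above among the early B markers, 12.31 to 12.97. These signals do not give the share of such cells. Arrays correlated at r = 0.956 to 0.983 over 18193 genes. The 3′ minus 5′ signal of the Gapdh control, a sign of RNA quality, was 2.70 to 2.92 in wild type and 2.25 to 3.20 in Sca1-MALT1, lowest in replicate 4 and highest in replicate 5; that of beta-actin was 1.45 to 2.14 and 1.25 to 2.49. The female-specific transcript Xist read above 9 in Sca1-MALT1 replicates 2 and 4 and in no wild-type array. The part of sex and RNA quality in the differences was not tested beyond the fit with a term for Xist, in which 0 of the 37 genes passed and their median was 0.56.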

How the data were processed

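Material amplified and labelled from total RNA was hybridised to 1-colour Affymetrix arrays. The deposited values are log2 signals made by the authors with RMA, per the submitters' processing notes (version and joint set of arrays: not given in the sources used here). Values ran from 2.73 to 15.41, which is how the log2 scale was recognised. They were used without further normalization or filter. The table held 45101 probe sets. Of these, 34945 named a single gene and were used, 932 named several genes, 9160 were unnamed and 64 were controls. Symbols were updated through Entrez identifiers, and the brightest probe set stood for a gene. Listed genes without such a probe set were not analysed here.

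Groups were compared with limma 3.58.1 (R 4.3.3; lmFit, eBayes, genotype as the only term), two-sided, with Benjamini-Hochberg adjustment over all 18193 genes and a threshold of 0.05. The fit was tested on simulated data. The number of arrays limits the precision. Nothing in the labels ties each sample to its own animal, so the p-values speak only of spread among these arrays, which could be technical. The 37 genes, the other lists and the tests were chosen with earlier results of these data known. Array values are given for the 5 regulators and, per other role, for up to 4 genes with the lowest unadjusted p and the gene with the lowest difference; other lists name up to 3 by p. Alternatives were quantile scaling, median centring, a filter on dim genes, all probe sets, their mean, trended robust variance, array weights, a replicate block, a term for Xist (signal above 9) and leaving out each array.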

Additional observations from a re-analysis of the deposited data

Results flagged for a closer look

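Of 49 genes named in the text and checked among the 5 Sca1-MALT1 arrays, 1 had an array far from the others. The cystine transporter gene Slc7a11 read 3.81 in replicate 3, with the nearest of the other arrays at 4.06, all at dim signals. By chance about 1 in 20 groups shows such an array.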

How the results depend on the processing

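Of 37 genes and Xbp1, 31 kept the sign of their difference under every one of 17 alternatives that gave them a value (Fkbp11 was removed by the filter on dim genes), and 0 passed the threshold in any alternative other than the fit without Sca1-MALT1 replicate 2. The others lay near 0. The filter, the test of all probe sets and trended robust variance left each difference as it was, so no sign could turn there. Apart from the mean of probe sets, all alternatives read the brightest probe set. Of 26 genes with over 1 probe set, 9 had a probe set of the other sign. Hspa5, Os9, Edem2 and Ddit3 were among these, although they count among the 31. Trib3 turned to -0.0049 with quantile scaling, -0.015 with median centring, -0.044 with the mean of probe sets, -0.30 with array weights, -0.60 with the replicate block and -0.42 with a term for Xist. With the mean of probe sets, Eif2ak3 stood at -0.018, Atf4 at -0.076, Edem3 at -0.21 and Canx at 0.055. Pdia6 stood at -0.016 with array weights, -0.034 with the block and -0.023 with the Xist term, Atf4 at -0.016 with the Xist term and Pdia3 at 0.016 with the block. Leaving out each array gave ranges of -0.22 to 0.38 for Eif2ak3, -0.035 to 0.12 for Atf4, -0.29 to 0.27 for Trib3, -0.16 to 0.031 for Canx, -0.11 to 0.083 for Pdia3, -0.035 to 0.31 for Pdia6 and -0.014 to 0.42 for Edem3. The cause was not tested.

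Over all genes, 16 passed (8 higher, 8 lower), against 28 with median centring (18 and 10), 28 with array weights (17 and 11), 29 with the Xist term (23 and 6) and 8 to 38 with 1 array left out: 10, 38, 8 and 9 without Sca1-MALT1 replicates 1, 2, 3 and 5. The filter on dim genes gave 18 (13 and 5). Of the 37 genes, 0 to 3 passed and 12 to 19 were separated with 1 array left out, and their median was 0.49 to 0.72. With the replicate block, over replicates 1 to 3 of each group, 0 genes passed by limma and 2034 had an unadjusted p under 0.05, 13 of them among the 37. No pairing by the shared numbers was seen: deviations from the group means correlated at -0.22, -0.038 and 0.0064, and 0 of 3 wild-type arrays matched their own number best. So few arrays cannot exclude pairing.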

Other observations

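The genes outside all lists whose signal followed Edem1 most closely over the 8 arrays were Cacna1h, a calcium channel subunit (Pearson r = 0.994), Gpr180 (r = 0.986) and Igk, the immunoglobulin kappa chain (r = 0.985), which stood 2.99, 0.62 and 5.47 higher in Sca1-MALT1 on the log2 scale, with adjusted p-values of 0.0730, 0.224 and 0.0583 by limma. For Hspa5 they were Ccdc116 (r = 0.968), Serac1 (r = 0.954) and Golt1b (r = 0.921), at 0.063, 0.13 and 0.18. The 8 points fall into the 2 genotypes and share arrays, so these correlations describe likeness in these samples and carry no test.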
